A study of Mus musculus with 18 samples.

Results

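A set of 7 complement genes was followed across osterix-derived bone and marrow cells: C1ra, C1s1, Serping1, C4b, C3, Cfd and Cfb. They were taken by name, as 7 of the 54446 genes counted. Osterix (Sp7) drives the formation of osteoblasts, and cells that descend from osterix-expressing cells were sorted from mice at postnatal day 21. Control mice, labelled wild type, were compared with mice labelled as a conditional PTH1R knockout. PTH1R binds parathyroid hormone and its related peptide. Each genotype was sorted into 3 subsets: GFP-Tm+ marrow stromal cells, GFP-Tm+ bone cells (GFP- bone below) and GFP+ bone cells. With 3 libraries in each of these 6 groups there were 18. The labels used here name no Cre line, allele or strain, and do not say if the replicates are different animals. P-values therefore measure the spread between these libraries, which may be technical.

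Complement is a cascade of blood and tissue proteins that mark surfaces and attract immune cells. In the classical pathway the proteases C1r and C1s, held on C1q, cleave C4 and C2, and the product cleaves C3. In the alternative pathway factor D cleaves factor B bound to C3b, and the complex cleaves more C3. The liver is the main source of most of these proteins in blood, and fibroblasts, stromal cells, fat cells and macrophages also make several of them.

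Marrow stromal cells had the highest mean level of every gene of the set in both genotypes, and apart from Cfb, which had few reads, each gene was lower in bone than in marrow in every comparison but that of C3 in control GFP+ bone. In the knockout, C4b was higher in all 3 subsets. C1ra was higher in both bone subsets but not in marrow, and C1s1 was higher in GFP- bone. Serping1, which encodes the inhibitor of C1r and C1s, was lower in knockout marrow. C3 was higher in knockout marrow and lower in knockout GFP+ bone. The calls of C4b and Serping1 in marrow and of C3 in GFP+ bone were lost in some of the alternative fits given below. C1ra in marrow was called after a correction for gene length. Cfd and Cfb had no call between genotypes in any subset with all libraries fitted, and Cfd was called in GFP+ bone when only those libraries were fitted.

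The start regions of 4 of the 7 genes were found among RefSeq promoter windows (build GRCm38.p6, 250 bases before to 50 after each start), and 3 are shown because they let a reader compare the pair of C1 protease genes with C3. Capitals mark matches to any of 9 motifs searched on both strands.
C3, chr17:57228087-57228386, minus strand: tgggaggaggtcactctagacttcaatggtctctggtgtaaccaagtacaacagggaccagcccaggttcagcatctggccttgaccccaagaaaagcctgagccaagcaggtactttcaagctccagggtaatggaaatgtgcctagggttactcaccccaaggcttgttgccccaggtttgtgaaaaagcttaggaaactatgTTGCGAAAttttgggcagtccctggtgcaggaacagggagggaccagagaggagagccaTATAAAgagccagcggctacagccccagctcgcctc
C1ra, chr6:124512371-124512670, plus strand: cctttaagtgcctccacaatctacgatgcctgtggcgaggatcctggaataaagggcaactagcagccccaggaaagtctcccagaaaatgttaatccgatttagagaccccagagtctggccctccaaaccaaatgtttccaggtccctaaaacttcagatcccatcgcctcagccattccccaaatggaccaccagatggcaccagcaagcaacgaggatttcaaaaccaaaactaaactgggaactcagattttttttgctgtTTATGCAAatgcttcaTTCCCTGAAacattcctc
C1s1, chr6:124542310-124542609, minus strand: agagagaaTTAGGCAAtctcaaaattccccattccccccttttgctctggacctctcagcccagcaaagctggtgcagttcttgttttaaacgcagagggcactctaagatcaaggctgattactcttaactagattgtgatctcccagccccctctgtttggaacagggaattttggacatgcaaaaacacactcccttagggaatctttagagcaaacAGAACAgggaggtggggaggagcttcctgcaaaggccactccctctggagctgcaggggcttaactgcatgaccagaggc

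C3 held a C/EBP match (letters TTGCNNAA) 45 bases before its start (position -45) and a TATA match (TATAAA) 14 bases after it. C1ra held a C/EBP match on the reverse strand that begins 16 bases after its start and a STAT match (TTCNNNGAA) 32 bases after it. Both positions count from the start that defines the window. The counted exons of C1ra begin at 124512405, inside the window and before that start. C1s1 held a reverse C/EBP match that begins at position -242 from the start and a reverse glucocorticoid receptor motif (TGTTCT) at position -30. In its other window, from 124542272 to 124542571, the C/EBP match falls outside. Cfd held none of the 9 motifs. Of 32851 promoter windows, 10.8% hold the C/EBP letters, 8.3% the STAT letters, 13.6% TATAAA and 19% the glucocorticoid receptor letters. The NF-kB letters (GGNNTTTCC, 5.82% of windows), the interferon-response core (GAAANNGAA, 8.56%), AP-1 (TGANTCA, 7.81%), the cyclic AMP response element (TGACGTCA, 1.79%) and its short form (TGACG, 20.8%) were in none of the members' windows. These are matches of letters in 1 window, and TGACGTCA also contains its short form.

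Library totals ran from 16443595 to 27160257 counts, and a count of 0 in a library allowed up to 0.0966 to 0.216 CPM, for counting error only. CPM is a gene's count scaled to the size of its library, here with the TMM factor. Sums of marker genes, here and below, are instead scaled to library totals without that factor. That scale shifts comparisons between genotypes, as given in the last section, while calls of single markers use the TMM factor. Pth1r, the targeted gene, was lower in knockout than control libraries of every subset without overlap, by 0.70, 0.56 and 0.52 on the log2 scale in marrow, GFP- bone and GFP+ bone (edgeR adjusted p = 0.000195, 0.00145 and 0.00226). It remained counted in all knockout libraries, at 318 to 4036 CPM, and counts over all exons include transcripts that lack a deleted part. Lack of overlap between genotypes, as for Pth1r, was seen in 54.7%, 54.4% and 57.6% of all genes tested in these subsets. Fold changes between genotypes rose with gene length in every subset (Spearman 0.37, 0.40 and 0.38 across genes, a description, since genes are not independent replicates). Values with this trend removed from each library, called length-corrected here, are given for the 7 members where they change a call. They are not given for the genes of the other lists. For Pth1r they were -0.50, -0.31 and -0.32, with an edgeR adjusted p = 0.0593 in GFP- bone. Markers of marrow stroma (8 genes such as Cxcl12, Lepr and Kitl) summed to 27716 to 68255 CPM in marrow and to 382 to 3983 CPM in bone. All 8 were counted in every group. Chondrocyte markers (6 genes) summed to at most 2978 CPM in marrow. In GFP+ bone they summed to 112910 to 136720 CPM in control and 247000 to 261740 CPM in knockout. There 5 of 6 were higher in the knockout and 1 lower (edgeR adjusted p under 0.05), and 51.3% of all genes passed in that comparison. Macrophage markers (10 genes) summed to at most 50.03 CPM in any library, and Cx3cr1 of that list was at 0 in control GFP+ bone and knockout marrow. Megakaryocyte markers (5 genes) summed to 274 CPM in knockout marrow replicate 2 and to at most 5.22 CPM in every other library. Erythroid markers (6 genes) summed to 470 CPM in control GFP- bone replicate 2 and 468 CPM in knockout GFP+ bone replicate 2. They summed to at most 162 CPM in every other library, and neutrophil markers (7 genes) to at most 137 CPM in any.

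**Figure D1:**
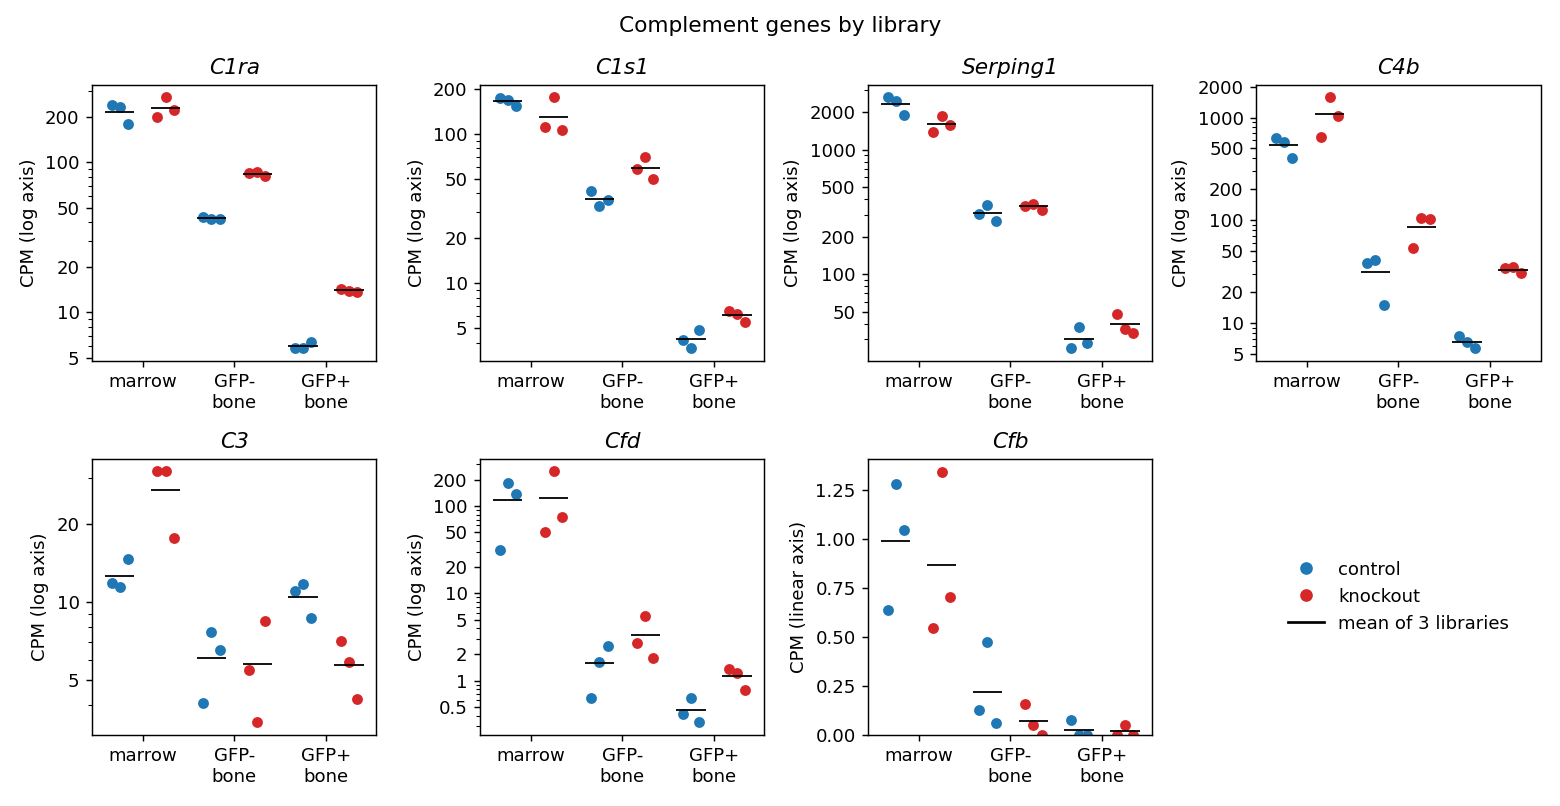
Level of each complement gene in every library, in CPM after TMM scaling (log axis, linear for Cfb), by subset, with blue points for control, red for knockout and a line at the mean of 3 libraries. The marrow mean lies highest for each gene in both genotypes, with all marrow libraries of Cfd at 31.4 CPM or more and those of Cfb at 1.34 CPM or less, and control C3 overlaps between marrow and GFP+ bone.

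The levels in control cells were compared first, to describe where these genes are used. Per length, in TPM, which divides counts by merged exon length before scaling to library size, control marrow had most Serping1, 4121 ± 676 (SD, n = 3 here and for all levels below), then Cfd at 520 ± 335, C4b at 390 ± 86.4, C1ra at 301 ± 42.4 and C1s1 at 217 ± 14.4. C3 stood at 10.1 ± 1.69 TPM and Cfb at 1.43 ± 0.426 TPM. Over only the exon bases that Cfb does not share with another gene, its level would be 6.97 ± 2.08 TPM. The inhibitor was thus the most abundant of the set by this measure, and C3, the protein on which the pathways converge, was among the lowest. In control GFP- bone the order began with Serping1 at 462 ± 62.5 TPM, C1ra at 48.9 ± 2.05 and C1s1 at 40.3 ± 5.6, and in control GFP+ bone with Serping1 at 46.8 ± 9.56, C3 at 7.3 ± 1.12 and C1ra at 7.17 ± 0.367. C1s1 also shares exon bases with another gene. Over its unshared bases its level would be 265 ± 17.6 TPM in control marrow and 49.4 ± 6.86 TPM in control GFP- bone. The order of C1ra and C1s1 in GFP- bone thus depends on the bases used. C3 and C1ra in GFP+ bone differed by less than their SDs.

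The 6 genes other than Cfb were all lower in control GFP- bone than in control marrow, where 39.3% of the 15516 genes tested were called (edgeR quasi-likelihood test, Benjamini-Hochberg adjusted p under 0.05, here and below). In control GFP+ bone 5 of these 6 were lower than in marrow, against 62.8% of all genes called. Between the bone subsets of controls 5 of 6 were called, against 40% of all genes, with 4 lower and C3 higher in GFP+ bone. In knockouts 6 of 6 were lower in GFP- bone than in marrow (46.9% of all genes called), 6 of 6 lower in GFP+ bone than in marrow (67.3%) and 4 of 6 lower in GFP+ than in GFP- bone (50.4%). Cfb was also called lower in bone than in marrow in these 4 comparisons, but it was tested only because its marrow libraries passed the filter on low counts. Its call in control GFP- bone was lost with DESeq2 (adjusted p = 0.053), without control marrow replicate 2 (edgeR adjusted p = 0.0586) and without control GFP- bone replicate 1 or 3 (0.0596 and 0.0761). Median log2 differences over the 7 genes, Cfb included, bone against marrow in controls, were -2.37 for GFP- and -5.29 for GFP+ bone, and over all genes 0.03 and -0.05. In these bulk samples, fewer cells that express a gene and less RNA per cell cannot be told apart.

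Cfd, the fat-cell protease adipsin that cleaves factor B, fell most between control marrow and bone. Control marrow libraries held 31.4, 186 and 138 CPM, GFP- bone 0.627, 1.63 and 2.52 CPM and GFP+ bone 0.418, 0.631 and 0.337 CPM. The lowest marrow library stood above every bone library. The log2 differences were -6.20 ± 0.92 (SE) for GFP- bone and -7.96 ± 1.04 for GFP+ bone (edgeR adjusted p = 0.000131 and 1.75e-05). Marrow libraries of 1 genotype also differed in Cfd by up to several times, and replicate 1 was lowest in each genotype.

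C3, which is cleaved at the point where the pathways meet, had another order. Control GFP+ bone libraries held 11, 11.8 and 8.66 CPM, and control marrow 11.8, 11.4 and 14.6 CPM. These ranges overlap, with a log2 difference of -0.25 and a 95% interval from -0.83 to 0.33 (edgeR adjusted p = 0.422). Control GFP- bone was lower, at 4.08, 7.66 and 6.53 CPM. GFP+ bone was above GFP- bone by 0.78 ± 0.30 on the log2 scale (edgeR adjusted p = 0.0462), and this call was lost with the replicate number as a block within genotype (0.79, adjusted p = 0.0528). It was also lost without control GFP- bone replicate 1 or 3 and without control GFP+ bone replicate 1 or 2, over a range of 0.56 to 0.98 for the 6 libraries left out in turn. Without control GFP- bone replicate 1 the fall from marrow to GFP- bone was -0.82 (edgeR adjusted p = 0.0537), from -1.03 with it (adjusted p = 0.00956).

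C1ra, C1s1 and Serping1 fell stepwise from marrow to GFP- bone to GFP+ bone in both genotypes, with no overlap between subsets. Of all genes tested, 50.1 to 69.7% did not overlap between a pair of subsets of 1 genotype, so this is common. In controls C1ra went from 218 ± 32.5 to 42.4 ± 0.992 and 5.96 ± 0.3 CPM, and C1s1 from 165 ± 10.02 to 36.6 ± 4.36 and 4.22 ± 0.6 CPM. Their products are partners in the C1 complex, and over the 9 control libraries each was the gene whose log2 CPM profile lay closest to the other, with a root mean square difference of 0.15 after centring. C4b took the same steps, at 542 ± 121, 31.5 ± 14.3 and 6.54 ± 0.884 CPM in controls. Replicate numbers could pair subsets of a genotype , and with them as a block within genotype 1 other call of a subset comparison changed. Cfd in knockout GFP+ against GFP- bone had a log2 difference of -1.54 ± 1.30 (edgeR adjusted p = 0.352), and with the block -1.53 (adjusted p = 0.0179). With only the libraries compared, Cfd was called lower in GFP+ than GFP- bone in knockouts (-1.56, adjusted p = 0.015) and in controls (-1.76, adjusted p = 0.0219).

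The genotypes were then compared within each subset, the comparison that the knockout was made for. In marrow 3 of 7 genes were called, 2 higher and 1 lower, against 47.9% of all genes called. In GFP- bone 3 of 7 were called, all higher, against 47.1%. In GFP+ bone 3 of 7 were called, 2 higher and 1 lower, against 51.3%. With so few members, 3 of 7 is near these shares, and in GFP+ bone 5 of 7 were called with DESeq2, the replicate block, the length correction or only the libraries compared. Of all genes, 7127 to 8124 were called in GFP+ bone under those fits, and 7953 in the main fit. Median log2 fold changes over the 7 genes were 0.08, 0.70 and 0.55 in marrow, GFP- bone and GFP+ bone, and over all genes -0.04, -0.07 and 0.03. Libraries of the genotypes did not overlap in 54.7%, 54.4% and 57.6% of all genes tested in these subsets, so lack of overlap below is common.

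C1ra encodes C1r, the protease that activates C1s (ENSMUSG00000055172.10, mm10 chromosome 6, 124512405 to 124523443, plus strand). Control GFP- bone libraries held 43.5, 41.8 and 41.8 CPM, and knockout libraries 84.6, 86.1 and 81.7 CPM. Control GFP+ bone held 5.81, 5.76 and 6.3 CPM and knockout GFP+ bone 14.3, 13.9 and 13.7 CPM. In both bone subsets the genotypes stood apart, with little spread within a group. The knockout was 1.99-fold higher in GFP- bone (log2 0.99 ± 0.11, edgeR adjusted p = 9.71e-07) and 2.35-fold higher in GFP+ bone (log2 1.24 ± 0.14, adjusted p = 6.83e-07). Marrow levels of C1ra were 240.0, 234 and 181 CPM in control and 201, 271 and 223 CPM in knockout libraries. These overlap, with a log2 fold change of 0.08 and an interval from -0.15 to 0.32 (edgeR adjusted p = 0.546), and the length-corrected value was 0.28 ± 0.10 with an adjusted p = 0.0314.

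C1s1 encodes C1s, which cleaves C4 and C2, and lies beside C1ra (ENSMUSG00000038521.17, chromosome 6, 124530345 to 124542359, minus strand). Of its 3129 exon bases 576 overlap Gm16567 on the opposite strand, which had 0 counts. Control GFP- bone libraries held 41.3, 32.7 and 35.8 CPM and knockouts 58.5, 69.8 and 50.1 CPM. All knockout libraries were above all controls, by 0.70 ± 0.17 on the log2 scale (edgeR adjusted p = 0.00174). Control GFP+ bone held 4.14, 3.67 and 4.86 CPM and knockouts 6.53, 6.25 and 5.54 CPM. They also stood apart, by 0.55 ± 0.23, but missed the threshold (edgeR adjusted p = 0.0558), and passed it after the length correction (0.72, adjusted p = 0.0162). Marrow controls held 173, 168 and 153 CPM and knockouts 111, 175 and 106 CPM. Knockout replicate 2 was the highest of the 6, and the log2 fold change of -0.33 ± 0.16 (edgeR adjusted p = 0.0841) became -0.60 without it (adjusted p = 0.000955).

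Serping1 encodes the C1 inhibitor, a serpin that inactivates C1r and C1s (ENSMUSG00000023224.12, chromosome 2, 84765387 to 84775444, minus strand). Marrow controls held 2631, 2474 and 1893 CPM and knockouts 1378, 1856 and 1581 CPM. Every knockout library was below every control, though the closest pair differed little. The knockout was 1.45-fold lower (log2 -0.54 ± 0.16, edgeR adjusted p = 0.00952). The length-corrected fall was -0.26 ± 0.15 with an adjusted p = 0.183, and without knockout marrow replicate 1 it was -0.44 (adjusted p = 0.0566). With library totals alone as the scale it was -0.40 (adjusted p = 0.0536), and with no low-count filter -0.49 (adjusted p = 0.0626). In GFP- bone controls held 307, 361 and 269 CPM and knockouts 352, 370 and 328 CPM, which overlap. In GFP+ bone controls held 25.4, 37.7 and 28 CPM and knockouts 48.1, 36.6 and 33.7 CPM, which overlap as well. The log2 fold changes, 0.16 ± 0.16 and 0.38 ± 0.18 (edgeR adjusted p = 0.437 and 0.0765), were 0.51 and 0.66 after the length correction (adjusted p = 0.0128 and 0.00329). With library totals alone they were -0.07 and -0.0048.

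C4b encodes complement component 4, the first substrate of C1s, whose larger fragment binds surfaces through a thioester (ENSMUSG00000073418.4, chromosome 17, 34728380 to 34743882, minus strand). Control GFP+ bone libraries held 7.44, 6.51 and 5.68 CPM and knockouts 34, 34.8 and 30.5 CPM. This was the largest rise among the 7 genes in any subset that passed the test, 5.04-fold (log2 2.33 ± 0.44, edgeR adjusted p = 0.000444). Control GFP- bone held 38.3, 41.0 and 15.1 CPM and knockouts 53.1, 105 and 103 CPM. The knockouts lay above the controls without overlap, 2.75-fold higher on average (log2 1.46 ± 0.38, edgeR adjusted p = 0.00594).

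In marrow, control libraries held 636, 584 and 405 CPM of C4b and knockouts 647, 1568 and 1025 CPM. Knockout replicate 1 was only just above control replicate 1, and knockout replicate 2, the library with 274 CPM of megakaryocyte markers, was highest. The rise was 1.99-fold (log2 0.995 ± 0.35, edgeR adjusted p = 0.0313), and the length-corrected rise 0.82 ± 0.35 missed the threshold (adjusted p = 0.0721). The call was lost without control marrow replicate 2 (1.05, adjusted p = 0.0626), control replicate 3 (0.83, adjusted p = 0.112), knockout replicate 2 (0.62, adjusted p = 0.168) or knockout replicate 3 (1.04, adjusted p = 0.0544), and with no low-count filter (1.04, adjusted p = 0.0671). Marker sums of marrow stroma moved in the same direction in each subset. They ran from 27716 to 41137 CPM in control and 55506 to 68255 CPM in knockout marrow, from 1275 to 1747 and 3539 to 3983 CPM in GFP- bone, and from 382 to 422 and 647 to 816 CPM in GFP+ bone. Of the 8 markers 7, 8 and 7 were higher in the knockout, against 47.9%, 47.1% and 51.3% of all genes called in either direction. Sums of 6 fibroblast markers were lower in the knockout of each subset. They ran from 3911 to 5838 CPM in control and 1481 to 1985 CPM in knockout marrow. In GFP- bone they were 10883 to 11424 and 5970.5 to 8073 CPM, and in GFP+ bone 3068 to 3948 and 1415 to 1625 CPM. Of these 6 genes 3 were called lower in each subset, and 1, 2 and 1 higher. The part of either list in the result was not tested.

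C3 (ENSMUSG00000024164.15, chromosome 17, 57203970 to 57228136, minus strand) moved in opposite directions in marrow and GFP+ bone. Marrow controls held 11.8, 11.4 and 14.6 CPM and knockouts 31.8, 31.8 and 17.6 CPM. All knockouts were above all controls, 2.17-fold on average (log2 1.12 ± 0.25, edgeR adjusted p = 0.00113). GFP+ bone controls held 11, 11.8 and 8.66 CPM and knockouts 7.08, 5.86 and 4.24 CPM. Here all knockouts were below all controls, 1.80-fold (log2 -0.85 ± 0.30, edgeR adjusted p = 0.0231). Chondrocyte marker sums, given above, were higher in knockout GFP+ bone, and their part in this change and in those of C1ra and C4b there was not tested. The call in GFP+ bone was lost without control replicate 1 (-0.81, adjusted p = 0.0577), control replicate 2 (-0.76, adjusted p = 0.0741), knockout replicate 2 (-0.85, adjusted p = 0.061) or knockout replicate 3 (-0.69, adjusted p = 0.0888). In GFP- bone controls held 4.08, 7.66 and 6.53 CPM and knockouts 5.47, 3.45 and 8.46 CPM. These overlap, with a log2 fold change of -0.11 and an interval from -0.84 to 0.61 (edgeR adjusted p = 0.81).

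**Figure D2:**
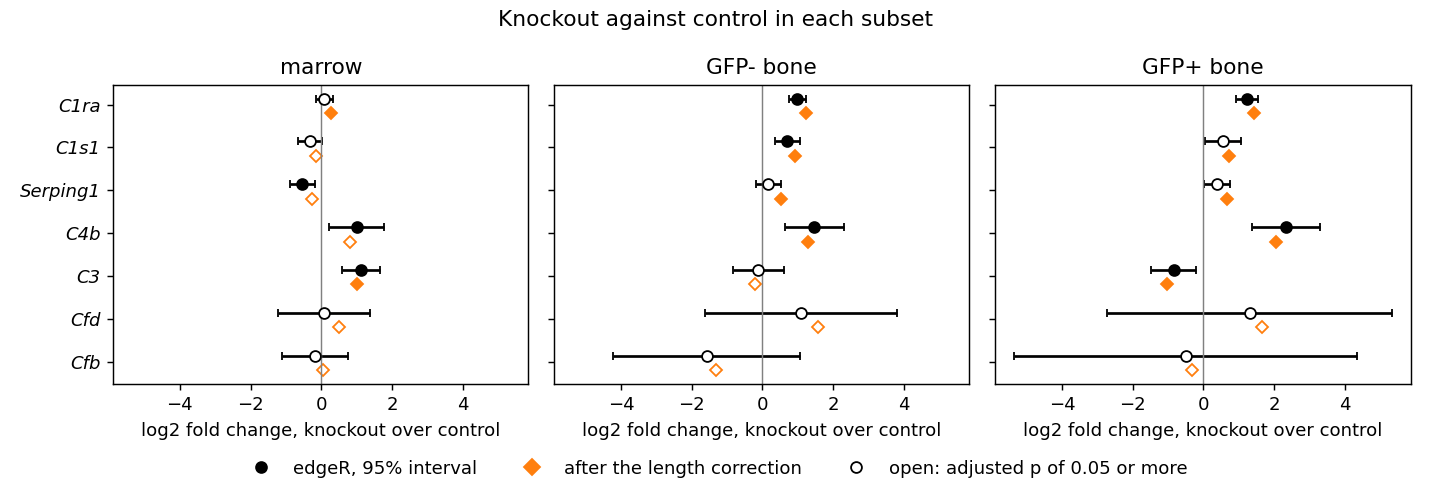
Log2 fold change of each complement gene in knockout over control, with its 95% interval (black circles, edgeR), and the same after the length correction (orange diamonds); open symbols have an adjusted p of 0.05 or more. C4b lies right of 0 in each subset, C3 changes side between marrow (1.12) and GFP+ bone (-0.85), and the intervals of Cfd and Cfb span 0.

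Cfd (ENSMUSG00000061780.6, chromosome 10, 79890853 to 79892655, plus strand) was not called in any subset when all libraries were fitted. Knockout marrow libraries held 50.02, 250.3 and 74.3 CPM, around the control values of 31.4, 186 and 138 CPM given above. The log2 fold change was 0.08 with an interval from -1.22 to 1.38 (edgeR adjusted p = 0.931), and it was -0.93 without knockout marrow replicate 2. GFP+ bone knockouts held 1.37, 1.21 and 0.791 CPM, all above the controls, and GFP- bone knockouts 2.69, 5.46 and 1.81 CPM. The log2 fold changes, 1.30 in GFP+ and 1.08 in GFP- bone, had intervals from -2.71 to 5.32 and from -1.63 to 3.79 (edgeR adjusted p = 0.591 and 0.514). Fitted with only the 6 GFP+ bone libraries, the rise of Cfd there was 1.31 and passed the threshold (edgeR adjusted p = 0.0267).

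Cfb encodes factor B (ENSMUSG00000090231.10, chromosome 17, 34856374 to 34862518, minus strand) and was barely counted, with 156 reads over the 18 libraries. Of its 2825 merged exon bases 2246 also belong to Gm20547, a gene model on the same strand that had 0 counts in all libraries. Reads in shared bases were thus not counted for both genes, and whether they were dropped is not stated. If they were dropped, the TPM of Cfb over all its exon bases is too low. Control marrow held 17, 30 and 22 reads and knockout marrow 17, 36 and 15. These overlap, with a log2 fold change of -0.18 and an interval from -1.11 to 0.76 (edgeR adjusted p = 0.764). Bone libraries held 0 to 9 reads. Cfb passed the filter on low counts through its marrow libraries, and over its 579 unshared bases its level in control marrow would be 6.97 ± 2.08 TPM.

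Whether the knockout effect differed between subsets was tested directly. Between GFP- bone and marrow 2 of 7 genes were called (7.79% of all genes), and between GFP+ bone and marrow 4 of 7 (18.4%). Between the bone subsets 0 of 7 were called by edgeR (6.08%), and 0 by any other setting run that gave this contrast. C1ra moved up more in GFP- bone than in marrow, by 0.91 ± 0.16 on the log2 scale (edgeR adjusted p = 0.000969), and more in GFP+ bone than in marrow, by 1.15 ± 0.18 (adjusted p = 0.000187). C1s1 did likewise, by 1.04 ± 0.23 (adjusted p = 0.00711) and 0.89 ± 0.28 (adjusted p = 0.0338). Serping1 differed by 0.92 ± 0.24 between GFP+ bone and marrow (adjusted p = 0.011). C3 differed by -1.96 ± 0.39 between GFP+ bone and marrow (adjusted p = 0.00188). The comparisons that involve marrow share its 6 libraries. For C1s1 in GFP+ bone the call was lost without any 1 of 8 of the 12 libraries, over a range of 0.75 to 1.16. With library totals alone C1s1 differed by 0.68 in GFP- bone (adjusted p = 0.0551) and 0.37 in GFP+ bone (adjusted p = 0.381), and Serping1 by 0.40 in GFP+ bone (adjusted p = 0.222). With no low-count filter C1s1 and Serping1 in GFP+ bone were at 0.80 and 0.84 (adjusted p = 0.0731 and 0.0701). C4b differed by 1.34 between GFP+ bone and marrow (edgeR adjusted p = 0.118), and by 1.46 with the block within genotype (adjusted p = 0.011). That block also pairs control GFP+ bone with control marrow, a pairing that the correlations given below did not fully bear out. Serping1 differed by 0.70 between GFP- bone and marrow (edgeR adjusted p = 0.0676), with 0.71 and an adjusted p = 0.0257 under that block. This difference also passed the threshold after the length correction (0.77, edgeR adjusted p = 0.0343) and with DESeq2 (0.78, adjusted p = 0.0154). The same held in edgeR with DESeq2-style size factors (adjusted p = 0.0381), the replicate block (0.0302) and only the libraries compared (0.026). Its call thus depended on the fit. In knockout marrow, where 47.9% of all genes were called, 7 of 8 osteoblast markers were lower. Their sums were 150060 to 202780 CPM in control and 70350 to 93404 CPM in knockout marrow, 222960 to 246090 and 277730 to 356580 CPM in GFP- bone, and 35201 to 58633 and 38985 to 52080 CPM in GFP+ bone. Their part in the result was not tested.

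C4b, C1ra and C1s1 each have a near-identical copy, and how reads that match both copies were counted is not stated, so values of these genes are uncertain by that amount. Of the 50-base words of the longest transcript, 35.2% of C4b are also in C4a, 48% of C1ra in C1rb and 24.3% of C1s1 in C1s2. The counts given to the copies were small but not even. C4a took 1.84%, 0.0146% and 0% of the C4 pair in control marrow replicates 1, 2 and 3, and 2.17%, 2.21% and 2.06% in the knockouts. Exact 95% binomial intervals, which cover counting error only, were 1.64 to 2.05% for control replicate 1, and reached 0.0528% and 0.0434% at most for the other two. Control replicate 1 thus lay near the knockouts and above the other control marrow libraries. In GFP- bone C4a had 6, 0 and 1 reads in controls and 21, 33 and 39 in knockouts, and in GFP+ bone 4, 1 and 1 against 34, 23 and 7. With so few reads, intervals of the share in several control bone libraries include that of control marrow replicate 1.

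C1rb and C1s2 had another pattern. In knockout marrow C1rb had 11, 168 and 118 reads and C1s2 5, 232 and 135, so that replicates 2 and 3 stood apart from replicate 1. In knockout GFP- bone C1rb had 3, 37 and 0 reads and C1s2 1, 64 and 1, with replicate 2 alone high. Control marrow had 1 to 5 reads of C1rb and 4 to 7 of C1s2. In knockout marrow replicates 2 and 3 C1rb made up 2.26 and 2.42% of its pair and C1s2 4.71 and 5.65%. Among the first copies, C1ra in knockout marrow was also higher in replicates 2 and 3 (271 and 223 CPM) than in replicate 1 (201 CPM), and in knockout GFP- bone its libraries lay between 81.7 and 86.1 CPM. C1s1 was highest in replicate 2 of both knockout marrow (175 CPM) and knockout GFP- bone (69.8 CPM). The share of a copy was at most 4.37% for C4a, 2.71% for C1rb and 6.03% for C1s2 in any library, the last from 7 reads in control GFP+ bone replicate 1. What the split between libraries comes from was not tested. The labels used here name no strain, and whether the animals shared a genetic background at these loci was not tested, a limit on the genotype comparisons of C4b, C1ra and C1s1.

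**Figure D3:**
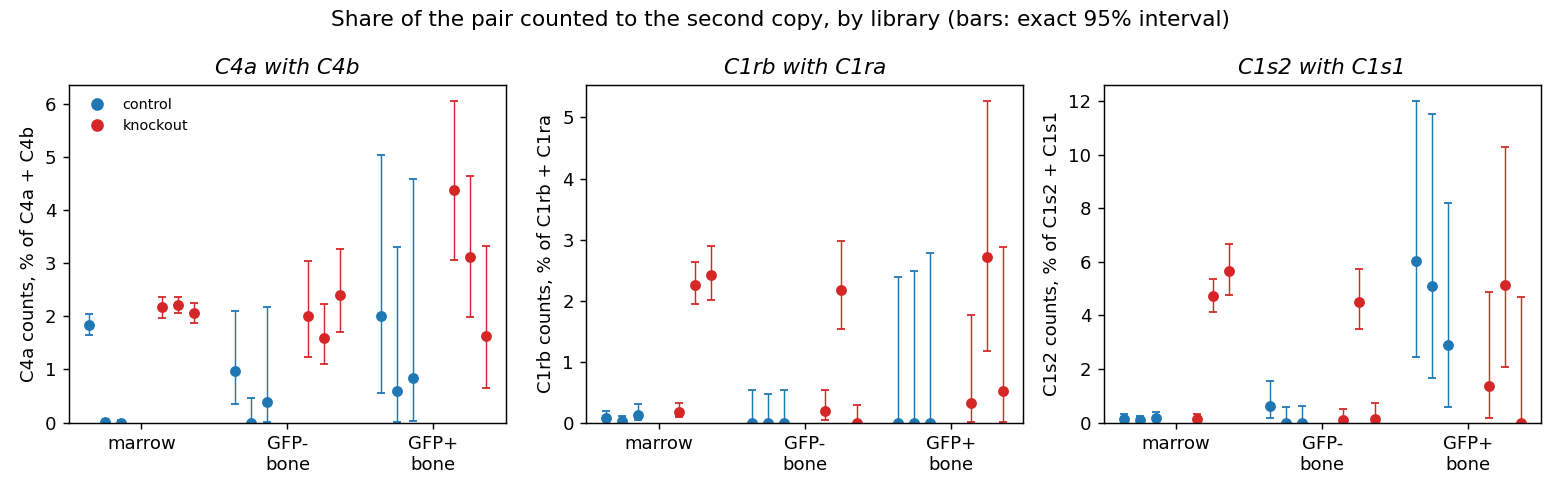
Counts of C4a, C1rb and C1s2 as a percentage of the pair with C4b, C1ra and C1s1, in each library, with exact 95% binomial intervals (blue control, red knockout, replicates 1 to 3 from left to right). C4a lies near 2% in every knockout marrow library and in control marrow replicate 1, and C1rb and C1s2 stand out in knockout marrow replicates 2 and 3 and in knockout GFP- bone replicate 2. Shares of C1s2 in control GFP+ bone rest on 3 to 7 reads.

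Other genes of the system were read from a list of 51, of which 32 were tested. In knockout marrow 7 were higher and 9 lower, in GFP- bone 6 and 6, and in GFP+ bone 8 and 4, against 47.9%, 47.1% and 51.3% of all genes called in either direction. Among recognition proteins, Colec12, a scavenger receptor of the collectin family, was higher in all 3 subsets, by 0.38 ± 0.08, 0.89 ± 0.08 and 0.87 ± 0.08 on the log2 scale in marrow, GFP- bone and GFP+ bone (edgeR adjusted p = 9.59e-04, 1.27e-07 and 1.17e-07). C1qa, C1qb and C1qc, which form the recognition part of the C1 complex, were at no more than 7.8 CPM in any library. Colec11 was called in GFP- bone, from 1.4 to 3.1 CPM. Among proteases C2, the partner of C4 in the convertase, fell in marrow from 14.2 ± 6.75 to 7.61 ± 2.5 CPM (log2 -0.91 ± 0.31, edgeR adjusted p = 0.0202). Its exons too overlap Gm20547. C6, of the terminal complex, fell in marrow from 66.1 ± 11.9 to 22.5 ± 4.27 CPM and in GFP- bone from 5.62 to 2.4 CPM (edgeR adjusted p = 1.85e-06 and 0.00271).

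Among regulators, Clu, clusterin, rose by 0.42 ± 0.16 in GFP- and 0.97 ± 0.17 in GFP+ bone and was at -0.03 in marrow. Cr1l, a membrane regulator of C3 convertases, fell in all 3 subsets by 0.66, 0.53 and 0.66 on the log2 scale, and Cd59a, which blocks the terminal complex, fell by 0.54 in marrow and rose by 0.64 in GFP- bone. Csmd1 rose in marrow by 0.61 (edgeR adjusted p = 0.0231), and was called in GFP+ bone with a control mean of 0.0452 CPM, under the level of 3 counts in a library, against 0.629 CPM.

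Among receptors, C5ar2, which binds the C5a fragment, rose in all 3 subsets. Its marrow level went from 3.6 ± 1.21 to 29.9 ± 11.9 CPM (log2 3.05 ± 0.27, edgeR adjusted p = 5.24e-08), and its GFP- and GFP+ bone levels stayed under 3 CPM. C5ar1, the other C5a receptor, rose in marrow by 1.14 ± 0.31 (edgeR adjusted p = 0.00497). Cd93 was called in GFP+ bone, at 0.185 CPM in control and 1.02 CPM in knockout. C1qbp and Calr, which bind C1q and have other cell functions, fell in all 3 subsets, C1qbp by 0.35, 0.69 and 0.81 and Calr by 0.49, 0.67 and 0.53 on the log2 scale.

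**Figure D4:**
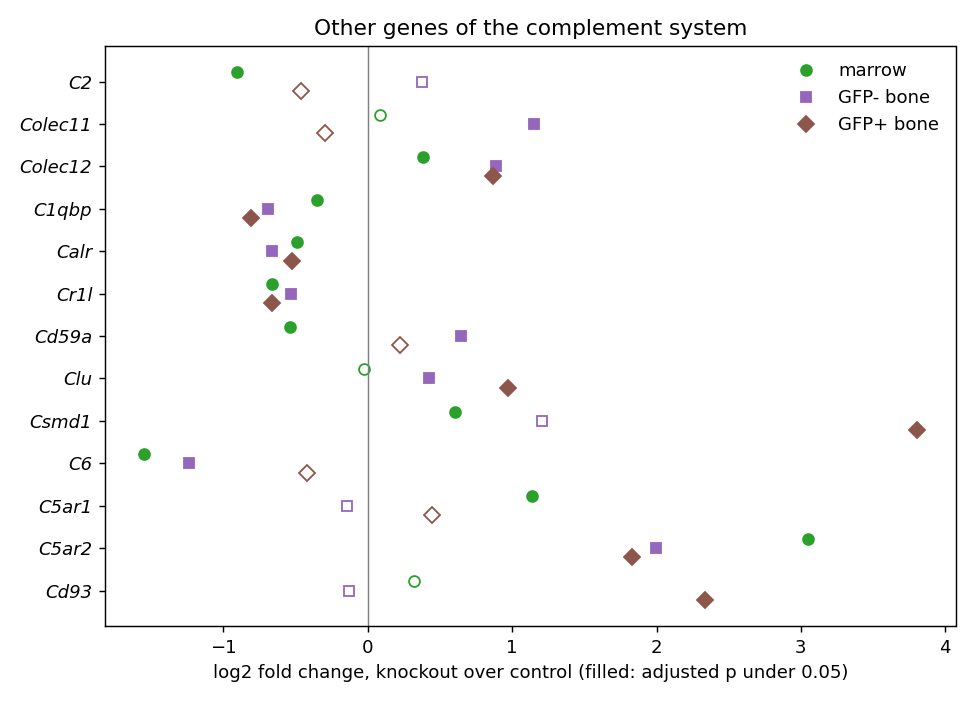
Log2 fold change in knockout over control of 13 other complement genes, in marrow (circles), GFP- bone (squares) and GFP+ bone (diamonds), filled where the adjusted p is under 0.05. C5ar2 and Colec12 lie right of 0 and C1qbp, Calr and Cr1l left of 0 in each subset, while Clu is filled in both bone subsets and open in marrow.

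Signals known to act on complement genes were read from a list of 34 acute phase, cytokine and interferon genes, 30 of them tested. In the knockout 17 were higher and 4 lower in marrow, 19 and 1 in GFP- bone, and 16 and 2 in GFP+ bone. Of all genes 47.9%, 47.1% and 51.3% were called in either direction in these comparisons. Il6st, the signalling chain shared by receptors of the interleukin-6 family, rose by 1.33, 1.64 and 2.49 on the log2 scale in marrow, GFP- bone and GFP+ bone. Osmr, the oncostatin M receptor, rose by 1.16, 1.60 and 3.30, and Stat3, the transcription factor downstream, by 0.34, 1.04 and 1.89 (edgeR adjusted p of 0.00461 or lower for each of these genes). Cebpb, a factor that binds C/EBP sites, rose by 1.44, 0.99 and 0.68, and Cebpa by 1.32, 1.63 and 1.56. The cytokine Il6 itself fell in marrow, from 11.2 to 4.3 CPM (edgeR adjusted p = 0.0292). Rela rose by 0.37 in GFP- and 1.16 in GFP+ bone.

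Of 13 fat-cell genes 12 were tested, and 10 were higher in knockout marrow with none lower, 8 and 0 in GFP- bone, and 6 and 1 in GFP+ bone. The shares of all genes called were 47.9%, 47.1% and 51.3%. Lpl, lipoprotein lipase, rose from 2744 to 6714 CPM in marrow (edgeR adjusted p = 1.68e-06), and Plin1 from 5.39 to 69.5 CPM (adjusted p = 4.32e-10). Cfd, itself a classical fat-cell gene, stood at 118 ± 79.0 CPM in control and 125 ± 109 CPM in knockout marrow beside them, and Adipoq at 1744 and 2083 CPM was not called there (adjusted p = 0.284). Of 12 other serpins and protease inhibitors 10 were tested, with 3 higher and 5 lower in knockout marrow, 2 and 2 in GFP- bone, and 5 and 3 in GFP+ bone. The same shares of all genes stand beside these counts. Serpina3n, an acute phase serpin, rose in all 3, by 1.54, 1.40 and 3.02, and Serpinf1 fell in marrow from 2469 to 717 CPM and in GFP+ bone from 721 to 529 CPM.

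Genes with the most similar profile over the 18 libraries were sought as the smallest root mean square difference of centred log2 CPM, a description over samples that share subset and genotype. For C3 they were Plin2 (0.38), which coats lipid droplets, Scp2 (0.41) and Pex16 (0.42). Plin2 stood at 63.9 ± 2.79 and 116 ± 14.3 CPM in control and knockout marrow and at 43.7 ± 1.08 and 24.1 ± 1.64 CPM in control and knockout GFP+ bone. Its mean was higher in knockout marrow and lower in knockout GFP+ bone, as for C3. Plin2 was picked for its likeness to C3 over these same libraries, which favours shared directions. For C4b they were Apoe (0.48), Plpp3 (0.48) and Pparg (0.48), for C1ra Rbms3 (0.25), Cp (0.30) and Rftn1 (0.32), for C1s1 Rftn1 (0.31), Cp (0.33) and C1ra (0.33), and for Serping1 Rarres2 (0.34), Amy1 (0.34) and Ptgfr (0.35). For Cfd they were Col6a5 (0.88), Cbln1 (0.90) and Trf (0.93). These differences are not scaled to a gene's own spread, and the SD of log2 CPM over the libraries was 2.93 for Cfd and 0.87 for C3. For Cfb, with its few reads, Stx7 (0.27), Tigd2 (0.29) and Fth1 (0.29) came nearest. The neighbours depend on the libraries used: in the 9 control libraries alone none of the 3 genes named for C3, C4b or Cfb was again among the 3 nearest, and 1 was for C1ra and Serping1 and 2 for C1s1 and Cfd. In the controls C3 lay closest to Fam213a (0.17), Hyou1 (0.17) and Arhgap18 (0.20), and C4b lay closest to Vcam1 (0.34), with Lepr (0.43) also among the 3 nearest, and both are among the marrow stroma markers.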

How the data were processed

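RNA from 18 libraries was sequenced, with RNA extracted by an RNeasy Plus Micro kit and cDNA made with SMART-Seq v4 chemistry, per the labels' protocols. The deposited files hold whole-number counts of reads for each gene from featureCounts, as their headers show, and the merged exon length stands beside them in the deposited files. STAR, featureCounts, DESeq2 and mm10 are listed without versions in the submitters' processing notes. The strand setting and the handling of multiply mapped reads are not given in these sources. Symbols and coordinates come from a mouse annotation of mm10, which matched 54409 of 54446 gene IDs. C4b, Cfb and Serping1 had no entry in the promoter table.

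All 18 libraries were fitted in 1 model with 6 group means and 12 residual degrees of freedom, using edgeR 4.0.16 (R 4.3.3): filterByExpr (minimum count 10, minimum total 15), which kept 15516 genes and all 7 members, TMM scaling, and the robust quasi-likelihood F-test, two-sided, with Benjamini-Hochberg adjustment across all tested genes (threshold 0.05). The fit was tested on simulated data. Alternatives were DESeq2 1.42.0, other scalings, no filter, a correction of each library for its trend with merged exon length, only the libraries compared, leaving out each library, and the replicate number as a block. Libraries of a group differed by more than sampling noise in all 18 pairs (chi-square per degree of freedom 14.9 to 55.9), so none was merged.

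Same-number libraries were checked for shared deviations from their group means. Correlations were over 0.1 in 9 of 9 pairs between knockout subsets (0.18 to 0.41) and 8 of 9 between control subsets (0.10 to 0.26, with GFP+ bone against marrow missing by 1 pair), so numbers were taken to pair subsets within a genotype, except that comparison, from these correlations only, as the labels do not say so. Between genotypes 1 of 9 was over 0.1, and they were not taken to pair. The block nested in genotype was added after seeing the data. It was fitted to all subset comparisons and differences of effects, also those that pair control GFP+ bone with marrow. The main p-values come from the fit without a block.

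The members and gene lists were chosen with earlier results of these data known. Named were all 7 members, Pth1r, the copies C4a, C1rb and C1s2, listed genes past 0.05 in a knockout comparison with a group mean of at least 5 CPM (from the list of signals, the fat-cell list and the serpins, examples of these), and for each member the 3 genes nearest in profile among those with a mean of at least 5 CPM. Genes named at lower values, and C1qa, C1qb and C1qc, were added after their values were seen. Some genes that these rules name are not reported here.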

Additional observations from a re-analysis of the deposited data

Results flagged for a closer look

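The knockout effect of 4 members differed between subsets by a test of the difference itself (edgeR quasi-likelihood test of the interaction, 3 libraries in each of 4 groups). For C1ra the effect was higher by 0.91 in GFP- bone than in marrow (adjusted p = 0.000969) and by 1.15 in GFP+ bone than in marrow (adjusted p = 0.000187). For C1s1 the differences were 1.04 (adjusted p = 0.00711) and 0.89 (adjusted p = 0.0338). Serping1 differed by 0.92 between GFP+ bone and marrow (adjusted p = 0.011). C3 differed by -1.96 between GFP+ bone and marrow (adjusted p = 0.00188), with all knockout libraries above all controls in marrow and below them in GFP+ bone. Of all genes, 7.79% were called between GFP- bone and marrow and 18.4% between GFP+ bone and marrow. The calls of C1s1 and Serping1 between GFP+ bone and marrow were lost with library totals alone and with no low-count filter. That of C1s1 was also lost when some single libraries were left out, and its call in GFP- bone with library totals alone.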

How the results depend on the processing

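Of the 3 knockout comparisons, C1ra in both bone subsets, C4b in both bone subsets, C1s1 in GFP- bone and C3 in marrow kept direction and call under each alternative run. The number of members called moved from 3 to 1 in marrow with no low-count filter. In GFP+ bone it moved to 5 with DESeq2, with the replicate block, with the length correction with or without that block, and with only the libraries compared. Of all genes, 6587 were called in marrow with no filter, against 7425 in the main fit. In GFP+ bone 7127 to 8124 were called under the fits named, against 7953. The number of genes tested differs between some of these fits. For the difference of effects between GFP+ bone and marrow the number of members called fell from 4 to 2 with library totals alone and with no filter. With library totals alone the genes called by the difference of effects rose to 3735 for GFP- bone and to 5676 for GFP+ bone, each against marrow. That scaling moved the median of all genes by 0.14 in marrow, -0.24 in GFP- bone and -0.38 in GFP+ bone, and the higher share of calls from 48.2 to 59.6%, 45.6 to 30.8% and 50.7 to 30.9%. DESeq2 size factors moved the median by 0.10 in GFP- bone.

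Signs turned only in values that were not called. Cfb in marrow was at 0.0413 after the length correction and 0.0266 with the block as well. Serping1 was at -0.0703 in GFP- bone and -0.0048 in GFP+ bone with library totals. C3 in GFP- bone was at 0.0222 with DESeq2, and C3 between the knockout bone subsets at -0.0063 with the length correction and block. Leaving out 1 library at a time gave ranges from -0.93 to 0.57 for Cfd, -0.66 to 0.12 for Cfb and -0.0441 to 0.18 for C1ra in marrow, -0.45 to 0.16 for C3 in GFP- bone and -2.52 to 1.995 for Cfb in GFP+ bone. Between the knockout bone subsets C3 ran from -0.23 to 0.41. For differences of effects Cfb ran from -2.34 to 2.17 between GFP+ bone and marrow, and between the bone subsets Cfb ran from -0.94 to 3.57 and Cfd from -0.24 to 0.79. Why values moved was not tested.

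With the replicate block in all comparisons, C1s1 and Serping1 in GFP+ bone passed the threshold (0.54, adjusted p = 0.0465, and 0.39, adjusted p = 0.0358), though numbers were not taken to pair genotypes. Beyond these and those given with the results, the block changed no call of a member. Low counts limit Cfb and the bone levels of Cfd, and the trend with gene length, which moves with genotype in every subset, limits small fold changes.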
